A study of Mus musculus with 4 samples.

Results

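Pancreatic islet cells sense glucose through a short chain of proteins, and the 8 genes described here encode parts of it. They are Slc2a2, Slc2a1, G6pc2, Slc37a4, Mlxipl, Mlx, Txnip and Arrdc4, chosen by symbol, 8 of the 32285 genes in the count tables. Each was followed in 3 endocrine cell types, beta, alpha and delta cells, in 4 single-cell RNA libraries of mouse islets. The tables held raw counts of UMIs, the molecular tags that mark single RNA molecules.

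Glucose enters mouse beta cells mainly through GLUT2, the product of Slc2a2, and in many other cells through GLUT1, the product of Slc2a1. Inside the cell glucose is phosphorylated to glucose 6-phosphate, and G6pc2, the islet form of the glucose-6-phosphatase catalytic subunit, turns it back to glucose after Slc37a4 has carried it into the endoplasmic reticulum. Sugar phosphates also activate ChREBP, encoded by Mlxipl, a transcription factor that binds DNA as a dimer with Mlx. Among its best known targets are Txnip, an arrestin-like protein that binds thioredoxin and restrains glucose uptake, and its relative Arrdc4.

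The series asks what depleting CCR2+ myeloid cells early in life leaves in the islet later on. The CCR2-DTR+/- mice carried the diphtheria toxin receptor in cells that express CCR2, and WT littermates (CCR2-DTR-/-) did not. All were females on the C57b6/J background and all, WT included, received diphtheria toxin 4 times, every 48 hours from postnatal day 2, and regular chow from weaning at day 21. Groups were CCR2-DTR at 6 months and at 1 month of age, and WT at 6 months and at 1 month. Each group was 1 library made from 300 freshly isolated islets pooled from 2 to 3 mice, so genotype and age have no replicate, no p-value is given for them, and animal, isolation and group cannot be told apart.

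The files list 7113, 12444, 5089 and 10433 barcodes in the same order of groups, with 60315217 to 121292320 UMIs per library. Filters left 4256, 8600, 3638 and 8726 barcodes. More barcodes passed 15% mitochondrial UMIs in CCR2-DTR (23.9% and 18.4%) than in WT (12.2% and 9.37%). Any pair of libraries shared 6 to 34 barcode sequences. Cells were gated by the share of their UMIs that came from hormone genes. There were 1329, 3007, 735 and 3573 beta, 877, 2538, 710 and 2419 alpha, and 285, 616, 307 and 526 delta barcodes. Beta markers other than hormones (Mafa, Nkx6-1, Pdx1, Ucn3, Slc30a8, Ero1lb) summed to 4952 to 5225 CPM in beta, 1449 to 1600 in alpha and 326 to 500.3 in delta barcodes. As sums, alpha markers peaked in alpha (32348 to 48453 CPM) and delta markers in delta barcodes (5661 to 8856). Single genes made up most of both sums, Ttr with a mean of 38999 CPM in alpha and Rbp4 with 6754 in delta barcodes. Of the delta markers, Gpc6 was higher in alpha (8.35 CPM) than delta (3.7), and Prg4 was at 0 in delta barcodes. All others averaged highest in their own type, though Slc30a8 was close in beta (1515 CPM) and alpha (1267). CPM here means UMIs of a gene per 1000000 UMIs outside 7 hormone genes, summed over the barcodes of a type. Hormone UMIs thus do not enter the value, but the gate still chooses which barcodes do.

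Promoter sequence is shown for Txnip and Arrdc4, since the response of both to glucose is known to run through ChREBP sites near their start. All 8 genes had a window of 250 bases before to 50 after a start in RefSeq's GRCm38.p6 table, 12 windows in all. The E-box CACGTG, which reads the same on both strands, was in 3 of the 12, namely Arrdc4, Mlx and the upstream start of Mlxipl, and in 7.15% of all 32817 windows. The pair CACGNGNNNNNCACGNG, on either strand, was in 1 of the 12, Txnip, and in 0.0488% of all windows, 16 in number. The pair was searched with the Txnip site known, and a match is a stretch of letters, not a measured site. Capitals mark the match, which begins 85 bases before the start in Txnip (chr3:96557707-96558006, plus strand) and 193 before it in Arrdc4 (chr7:68749189-68749488, minus strand).
Txnip: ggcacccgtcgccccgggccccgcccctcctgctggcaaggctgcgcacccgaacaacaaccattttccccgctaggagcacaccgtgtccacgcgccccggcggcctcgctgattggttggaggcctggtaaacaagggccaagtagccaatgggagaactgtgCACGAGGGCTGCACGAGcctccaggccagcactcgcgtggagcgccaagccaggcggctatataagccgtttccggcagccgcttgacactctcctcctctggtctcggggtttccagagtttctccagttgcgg
Arrdc4: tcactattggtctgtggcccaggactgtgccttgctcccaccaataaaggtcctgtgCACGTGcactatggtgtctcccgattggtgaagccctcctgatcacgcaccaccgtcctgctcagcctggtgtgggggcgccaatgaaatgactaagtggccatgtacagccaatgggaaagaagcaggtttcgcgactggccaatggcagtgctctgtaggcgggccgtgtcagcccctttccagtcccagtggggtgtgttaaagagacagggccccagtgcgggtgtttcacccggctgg

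Slc2a2, the main glucose transporter of mouse beta cells, was a beta cell gene in every library. It lies on chromosome 3 at 28697903 to 28731359 (GRCm38, plus strand). In beta barcodes it had 1057, 936, 952 and 1005 CPM in CCR2-DTR (6 months, then 1 month) and WT (6 months, then 1 month). Their mean was 987 ± 55.3 (SD, n = 4 libraries). Alpha barcodes had 28.5, 47.9, 28.2 and 18.8 CPM, and delta barcodes 47.4, 61.8, 39.2 and 22.2 CPM. Beta was thus above alpha and delta in all 4 libraries with no overlap. The fit across 7204 genes (edgeR's quasi-likelihood test on 12 summed profiles, library as block, Benjamini-Hochberg) put it 31.5-fold higher in beta than alpha (log2 4.98 ± 0.20 SE, adjusted p = 7.38e-10) and 25.4-fold higher than delta (4.67 ± 0.22, adjusted p = 4e-09). Alpha and delta did not differ past the threshold (log2 -0.31 ± 0.24, adjusted p = 0.29), though alpha was lower in all 4 libraries. With the looser gate the difference was called (log2 -0.62, edgeR adjusted p = 0.0119).

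G6pc2, which turns glucose 6-phosphate back to glucose, had the same shape. Gene coordinates are chromosome 2, 69211073 to 69227841, plus strand. It averaged 1715 ± 65.4 CPM in beta, 65.3 ± 28.8 in alpha and 63.0 ± 23.0 in delta barcodes (SD, n = 4 libraries each). It was 26.0-fold higher in beta than alpha (log2 4.70 ± 0.18 SE, edgeR adjusted p = 3.97e-10) and higher than delta by 4.91 ± 0.19 on the log2 scale (adjusted p = 9.72e-10). The alpha value of 1 library stood apart, with 109 CPM in CCR2-DTR at 1 month against 49.1 to 54.3 in the other 3.

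Insulin RNA was also found outside beta cells, and is given beside the low Slc2a2 and G6pc2 levels there. It made up 41.6% to 49.0% of UMIs in beta barcodes, 1.23% to 2.88% in alpha and 1.77% to 3.85% in delta. Among cells that should lack it, it was 2.37% to 4.07% in endothelial-like and 2.13% to 4.44% in macrophage-like barcodes, named from their markers. In each of these types other than beta the share was highest in CCR2-DTR at 1 month.

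For every 1000 insulin UMIs there were 0.938 to 1.16 Slc2a2 UMIs in beta, 1.02 to 1.51 in alpha, 0.941 to 1.44 in delta, 0.929 to 1.75 in endothelial-like and 0.95 to 1.57 in macrophage-like barcodes. Over all libraries the ranges overlap, but not within each library. In WT at 6 months there were 1.51 (interval 1.34 to 1.70) in alpha and 1.75 (1.44 to 2.12) in endothelial-like barcodes, against 0.958 (0.938 to 0.978) in beta. In WT at 1 month there were 1.02 (0.911 to 1.15) in alpha and 0.974 (0.725 to 1.28) in endothelial-like barcodes, against 0.938 (0.927 to 0.948) in beta.

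Insulin UMIs and the beta ratio of the same library predict 63.3% to 102% of the Slc2a2 measured in alpha, 70.8% to 99.6% in delta and 54.7% to 125% in endothelial-like barcodes. For G6pc2 the prediction was 84.4% to 123% of the delta level. In alpha it was 56.7% to 85.4%, and the G6pc2 UMIs per 1000 insulin UMIs lay above those of beta in 4 of 4 libraries with intervals that did not overlap. The folds of both genes over alpha and delta include whatever part of these levels came with insulin RNA, and that part was not tested further.

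**Figure D1:**
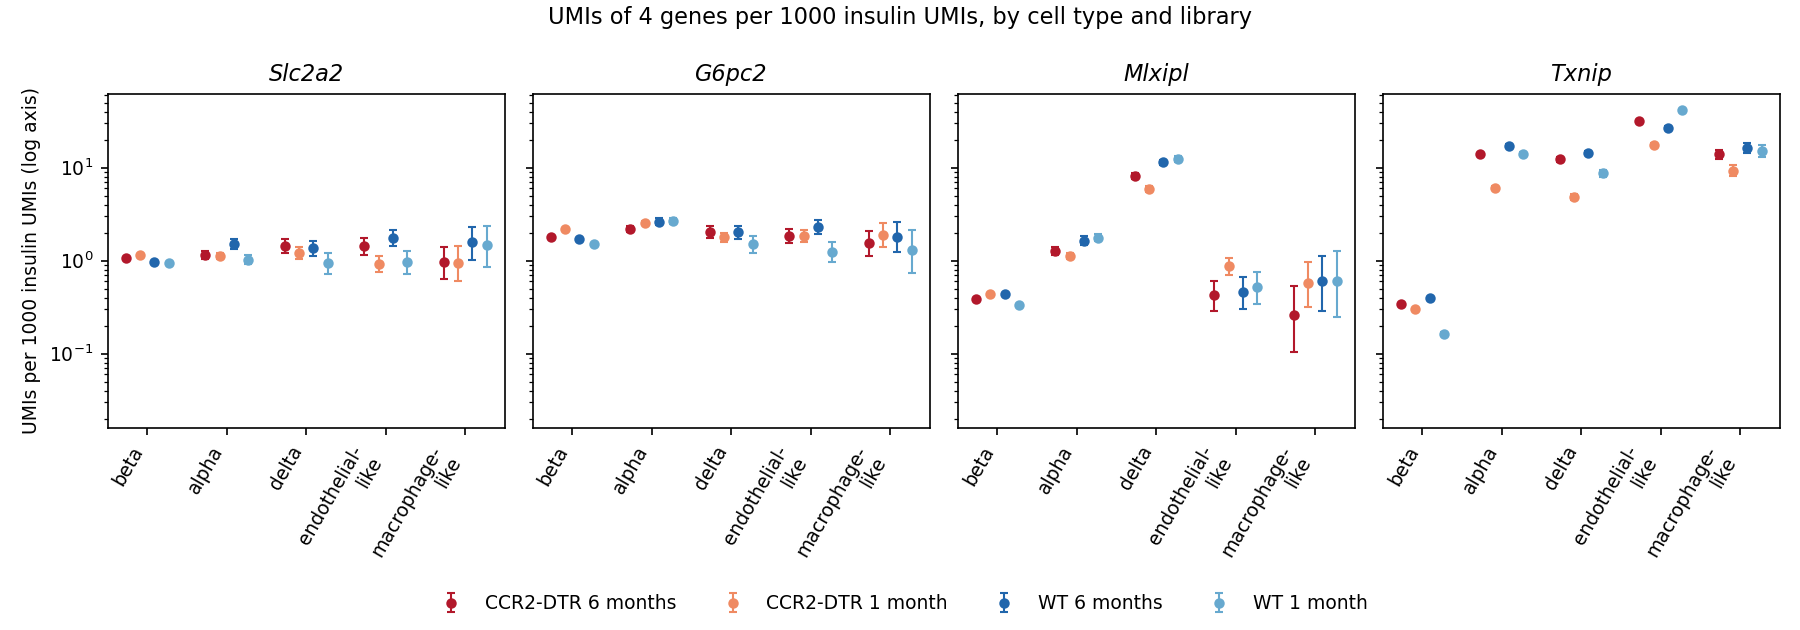
UMIs of Slc2a2, G6pc2, Mlxipl and Txnip per 1000 insulin UMIs (log axis) in 5 cell types, with 1 point per library and exact Poisson 95% intervals. Slc2a2 stays between 0.929 and 1.75 in all 5 types, whereas Mlxipl reaches 5.89 to 12.5 in delta barcodes, against 0.334 to 0.438 in beta barcodes.

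Slc2a1, which encodes GLUT1, was barely detected in endocrine cells (chromosome 4, 119108711 to 119137983, plus strand). It had 37 to 120 UMIs per library in beta, 30 to 43 in alpha and 8 to 18 in delta barcodes, or 2.09 to 6.14 CPM over the 3 types. That is under the floor of 20 CPM, averaged over libraries, that a gene had to pass to be tested. Endothelial-like barcodes had 8.99 to 22.2 CPM. Of 12 other hexose transporters 1, the fructose transporter Slc2a5, passed the floor. Slc2a5 had 326, 398, 330 and 347 CPM in beta against 166, 218, 147 and 183 CPM in alpha barcodes, and was 1.85-fold higher (edgeR adjusted p = 1.01e-08).

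Slc37a4, the glucose 6-phosphate carrier (chromosome 9, 44396852 to 44402968, plus strand), was graded over the cell types. It had 77.3, 75.4, 64.8 and 63.5 CPM in beta, 44.3, 47.1, 33.4 and 30.3 in alpha, and 29.9, 29.3, 20.5 and 20.6 in delta barcodes, CCR2-DTR at 6 and 1 months before WT at 6 and 1 months. It was 1.72-fold higher in beta than alpha (log2 0.78 ± 0.07 SE, adjusted p = 5.28e-07), 3.00-fold higher in beta than delta (1.58 ± 0.09, adjusted p = 1.56e-08) and 1.74-fold higher in alpha than delta (0.80 ± 0.09, adjusted p = 1.23e-05), all by edgeR. Insulin UMIs predict 3.60% to 8.36% of it in alpha and 6.76% to 16.3% in delta barcodes. In each cell type both CCR2-DTR libraries lay above both WT libraries. Of its 5 relatives in the glucose-6-phosphatase system, 3 passed the floor and Slc37a3 alone was higher in beta than alpha (1.16-fold, edgeR adjusted p = 0.0136). Over all genes 72.4% were called between beta and alpha.

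Mlxipl, the gene for ChREBP (chromosome 5, 135089890 to 135138382, plus strand), was high in beta and delta and low in alpha cells. Beta barcodes had 380.1, 353, 433 and 358 CPM, delta barcodes 269, 302, 332 and 294 CPM, and alpha barcodes 31.3, 47.9, 30.6 and 32.5 CPM. Beta exceeded alpha 10.0-fold (log2 3.33 ± 0.12 SE, edgeR adjusted p = 2.28e-10). Alpha was 7.41-fold lower than delta (log2 -2.89 ± 0.12, adjusted p = 2.64e-09). Beta exceeded delta by far less, 1.35-fold (0.44 ± 0.11, adjusted p = 0.00308), though in all 4 libraries. Insulin UMIs predict 2.68% to 7.43% of the delta level. They predict 18.9% to 38.5% of the alpha level. After thinning each barcode to 2000 UMIs outside hormone genes, a Mlxipl UMI was in 48.7% to 56.8% of beta, 40.9% to 45.1% of delta and 5.06% to 8.0% of alpha barcodes, against 1.84% to 4.77% of endothelial-like ones. Unthinned, these shares were 87.1% to 93.6%, 69.2% to 90.6%, 16.0% to 27.0% and 4.12% to 9.37%, at median depths of 7159 to 13584, 4387 to 9267, 5473 to 13237 and 2989 to 5652 UMIs outside hormone genes.

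Mlx, the partner of ChREBP (chromosome 11, 101087277 to 101092207, plus strand), was near even. It averaged 44.2 ± 5.3 CPM in beta, 37.5 ± 2.2 in alpha and 36.5 ± 2.0 in delta barcodes (SD, n = 4 libraries each). Beta exceeded delta 1.29-fold (log2 0.36 ± 0.10 SE, edgeR adjusted p = 0.00606), a call lost with the stricter gate (adjusted p = 0.0533). Beta and alpha did not differ past the threshold (0.15 ± 0.08, adjusted p = 0.12). Mlx overlaps Psmc3ip on the opposite strand, and Slc2a2, Slc2a1, Mlxipl and Txnip each overlap an annotated antisense gene. Whether counting used the strand is not stated, so reads of such partners cannot be told apart. Among 11 other genes of the MYC, MAX and Mondo network, 7 passed the floor. Of these 2 were higher in beta than alpha, Mlxip (1.28-fold), which encodes the ChREBP relative MondoA, and Max, and 2 were lower, Mxi1 (1.70-fold) and Mxd1. Over all genes 72.4% were called in this comparison.

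Txnip is among the best known ChREBP targets in beta cells, and its mean level overlapped between the cell types. It is on chromosome 3 at 96557957 to 96561883, plus strand. Beta barcodes had 336, 244, 392 and 176 CPM, alpha barcodes 347, 258, 322 and 262, and delta barcodes 403, 251, 417 and 206, CCR2-DTR at 6 and 1 months before WT at 6 and 1 months. The 3 types overlapped, and none of the 3 differences passed the threshold (log2 -0.20 ± 0.10 SE for beta over alpha, edgeR adjusted p = 0.0967; -0.07 ± 0.11 for beta over delta, adjusted p = 0.565; 0.13 ± 0.11 for alpha over delta, adjusted p = 0.335). Without WT at 6 months, beta was lower than alpha past the threshold (log2 -0.32, adjusted p = 0.0169). Endothelial-like barcodes had 763 to 1116 CPM. Mlxipl, in the same profiles, differed 10.0-fold between beta and alpha barcodes.

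Among the 3 endocrine types Arrdc4 was highest in alpha cells (chromosome 7, 68736995 to 68749241, minus strand). Alpha barcodes had 47.6, 26.0, 56.3 and 27.1 CPM. Beta barcodes had 13.6, 13.0, 17.7 and 12.3 CPM and delta barcodes 9.33, 10.5, 11.3 and 12.1 CPM, both under the floor within their type. In every library alpha lay above both other types. The fitted folds were 2.81-fold lower in beta than alpha (log2 -1.49 ± 0.14 SE) and 4.02-fold higher in alpha than delta (2.00 ± 0.22). Arrdc4 passed the floor through alpha alone, so these differences come with its selection and their tests are not read. Endothelial-like barcodes had 32.5, 22.0, 31.5 and 41.9 CPM, above alpha in WT at 1 month, and macrophage-like ones 15.6 to 24.8 CPM. Beta over delta was 0.51 ± 0.24 on the log2 scale (adjusted p = 0.0756). Its relative Arrdc3 was also lower in beta than alpha (1.71-fold), as was Arrdc1. Of 8 listed arrestin domain and thioredoxin genes, 4 passed the floor within beta and 5 within alpha barcodes. A relative may thus have passed it through alpha barcodes, and no test is read for them.

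**Figure D2:**
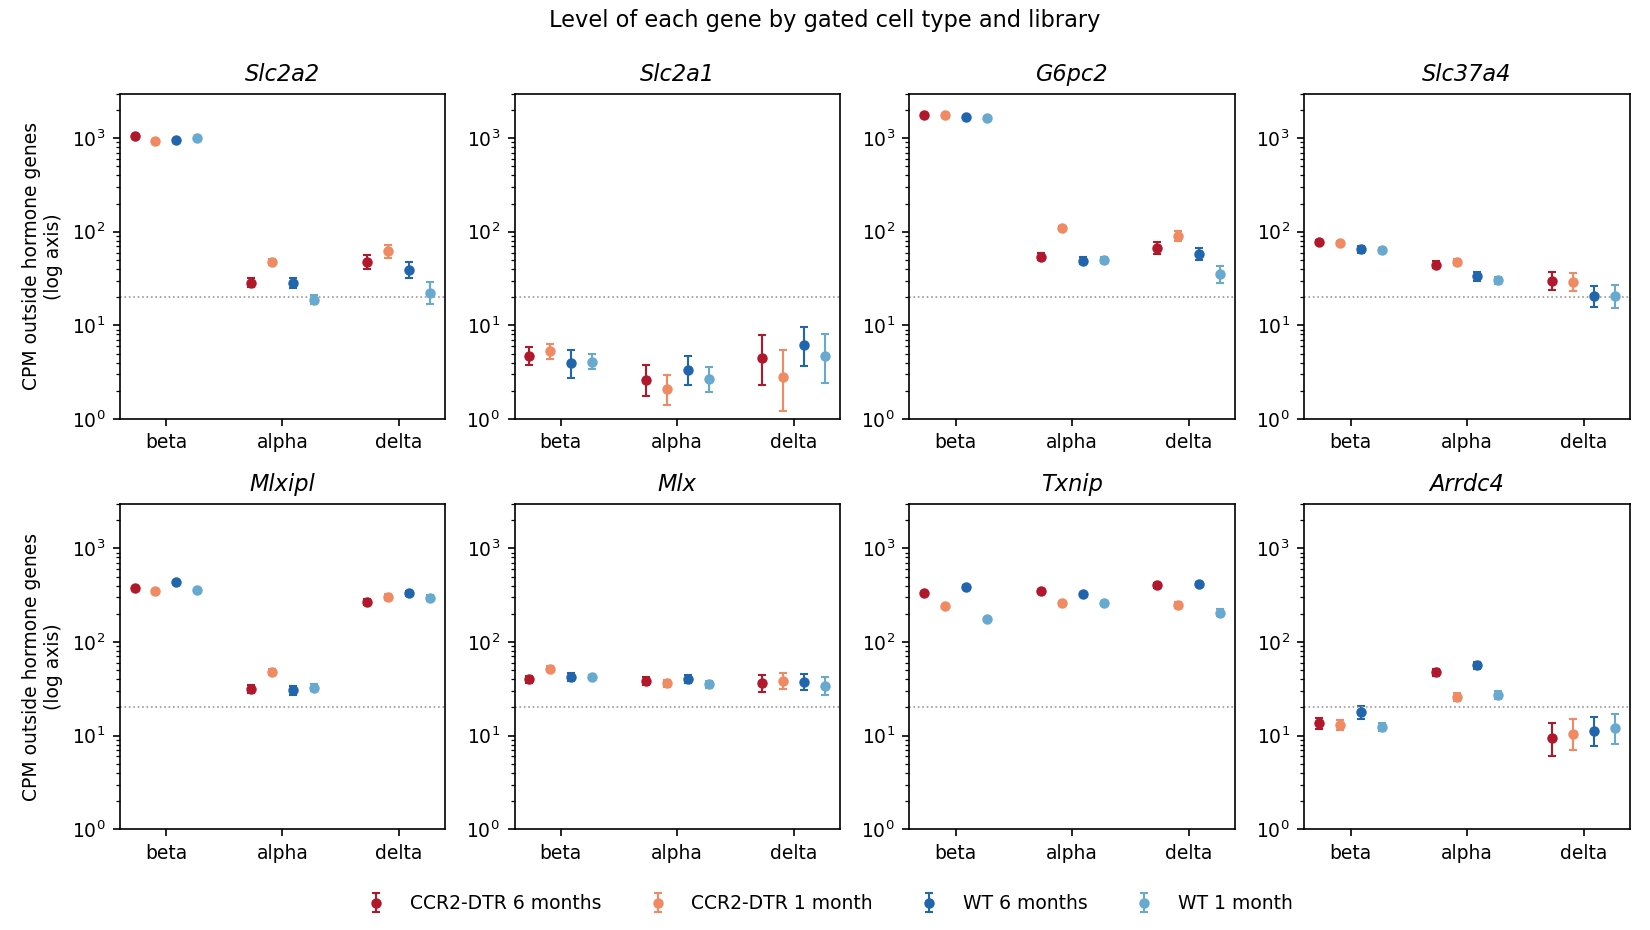
CPM outside hormone genes (log axis) of the 8 genes in beta, alpha and delta barcodes, 1 point per library with exact Poisson 95% intervals, and the floor of 20 CPM dotted. Slc2a2 (936 to 1057 CPM) and G6pc2 (1636 to 1772 CPM) stand clear of the other types in beta barcodes, Mlxipl is high in beta and delta, Arrdc4 in alpha, and Txnip and Mlx overlap.

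Of the 7 genes past the floor, 5 were called between beta and alpha (Slc2a2, G6pc2, Mlxipl and Slc37a4 higher, Arrdc4 lower), 5 between beta and delta (Slc2a2, G6pc2, Slc37a4, Mlxipl and Mlx higher) and 3 between alpha and delta (Slc37a4 and Arrdc4 higher, Mlxipl lower). Over all 7204 genes 72.4%, 67.2% and 54.9% were called in these comparisons, so the share among the 7 is close to the background in each and says nothing particular about them. The counts include Arrdc4, which passed the floor through alpha barcodes. The 3 comparisons share profiles and are not independent.

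The other genes reported to follow ChREBP leaned to beta cells. Of 22 listed, 9 passed the floor, and between beta and alpha 7 were higher and 2 lower, with a median log2 fold of 0.75 against 0.00 over all genes, of which 2616 of 7204 were higher and 2602 lower. Against delta 7 were higher and 1 lower (median 0.73, all genes 0.01). The floor was a mean over the 3 types, so a gene low in alpha could pass it through beta barcodes. Within alpha barcodes 8 of the 22 passed, among them Klf10, which was not among the 9. The lean to beta, and the tests of the genes named next, may come in part with this selection. The desaturase Scd2 had 133, 168, 133 and 159 CPM in beta against 23.4, 55.6, 32.1 and 40.5 in alpha barcodes (3.76-fold, adjusted p = 1.02e-08). Rgs16, a regulator of G-protein signalling, was 3.44-fold higher (adjusted p = 2.27e-09). ATP-citrate lyase Acly was 2.83-fold higher (adjusted p = 6.72e-11) and the fructose kinase Khk 2.03-fold (adjusted p = 2.01e-08), all by edgeR. The malic enzyme Me1 was among those lower (1.49-fold). Mlxipl and most of these genes thus had more RNA in beta than alpha barcodes, and Arrdc4 less.

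Neighbouring steps of glucose use were mixed. Glycolysis genes had 4 higher and 4 lower in beta than alpha of 11 past the floor (median log2 0.03), with pyruvate kinase Pkm 1.78-fold higher (adjusted p = 3.92e-09). Of 10 genes of pyruvate entry and shuttles, 6 were higher and 2 lower (median 0.19). Over all 7204 genes 2616 were higher and 2602 lower, or 72.4% called, so the share called in both lists is near the background. Pyruvate carboxylase Pcx had 72.0, 66.8, 69.2 and 65.3 CPM in beta against 8.69, 9.17, 6.06 and 6.53 in alpha barcodes, 8.39-fold higher. Pdk4, which shuts pyruvate out of oxidation, ran the other way, with 1.16, 1.05, 0.317 and 0.952 CPM in beta against 114, 94.4, 104 and 100.2 in alpha barcodes (115-fold lower). Pcx passed the floor through beta and Pdk4 through alpha barcodes alone, so no test is read for either. Immediate early and dissociation genes, which handling can raise, were lower in beta than alpha for 13 of 13 (median log2 -1.75, all genes 0.00). Of the 16 listed, 12 passed the floor within beta and 13 within alpha barcodes. Fos was 4.91-fold lower. The part of these genes, or of handling, in the cell type differences was not tested.

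Among single beta cells Txnip was one of the most unevenly spread genes. Over barcodes thinned to 2000 UMIs, its variance was 2.63, 2.32, 2.98 and 2.04 times its mean in CCR2-DTR at 6 and 1 months and WT at 6 and 1 months, where counting alone gives 1. That ranked 15, 22, 11 and 28 of 3791, 3710, 3836 and 3655 genes past a low-level limit. Alpha barcodes, at a like mean, had 1.11 to 1.22 and delta barcodes 1.11 to 1.29, below each beta value. The median beta barcode had 0 Txnip UMIs in all 4 libraries, and the one at the 99th percentile had 7, 5, 7 and 4. Slc2a2 ranked 57 to 78 with 1.36 to 1.48, and G6pc2 41 to 51 with 1.56 to 1.61.

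Txnip UMIs were found in 24.0% to 38.7% of thinned beta barcodes (54.0% to 73.9% unthinned). At least 3 were in 7.69% (6 months) and 5.15% (1 month) of CCR2-DTR beta barcodes, and in 9.90% (6 months) and 2.98% (1 month) of WT ones. In pairs, Txnip and Arrdc4 had Spearman coefficients of 0.07 to 0.11 over beta barcodes, Slc2a2 and G6pc2 of 0.10 to 0.16, and G6pc2 and Txnip of -0.10 to -0.01. All are weak in counts this sparse and are given as a description.

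**Figure D3:**
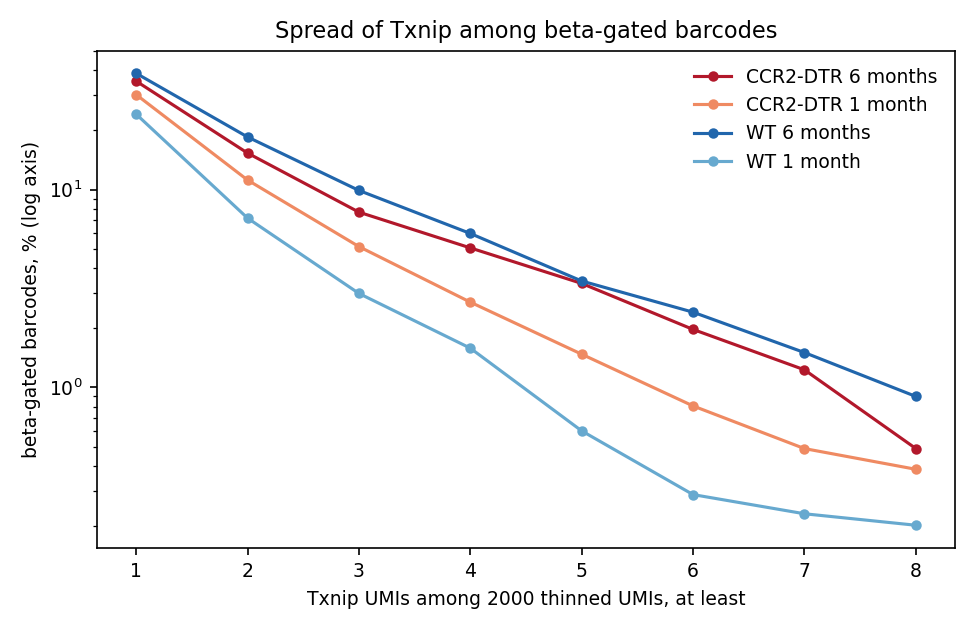
Share of beta barcodes (log axis) with at least a given number of Txnip UMIs among 2000 thinned UMIs, 1 line per library. At 3 or more UMIs the 6-month libraries hold 7.69% (CCR2-DTR) and 9.90% (WT), and the 1-month libraries 5.15% (CCR2-DTR) and 2.98% (WT).

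Between genotypes, the 6 genes past the floor stayed within 1.5-fold in beta barcodes, as did nearly all genes tested. This says nothing particular about them. Slc2a1 and Arrdc4 were under the floor and not counted. In CCR2-DTR over WT at 1 month, 0 of 6 genes past the floor reached 1.5-fold, where 0.959% of 6984 genes did, and at 6 months 0 of 6, where 0.788% did. Intervals here are exact for the counts of 2 libraries and cover counting error only. Txnip was nearest to 1.5-fold at 1 month, with 244 CPM in CCR2-DTR against 176 CPM in WT at 1 month (log2 0.47, interval 0.42 to 0.53) and 336 against 392 CPM at 6 months (-0.22, -0.28 to -0.16), opposite directions at the 2 ages. Slc37a4, the nearest at 6 months, was higher in CCR2-DTR at both ages (log2 0.25, 0.15 to 0.35, and 0.26, 0.11 to 0.40). Slc2a2 was at -0.10 and 0.15, G6pc2 at 0.12 and 0.07, and Mlxipl at -0.02 and -0.19. Scaling to all UMIs put the median gene at 0.18 at 1 month, and with it Slc2a2 at 0.07, Mlxipl at 0.16 and Txnip at 0.65, past 1.5-fold.

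In alpha barcodes 3 of 7 genes reached 1.5-fold between the genotypes at 1 month (0.936% of 6834 genes) and 0 of 7 at 6 months (0.863%). In delta barcodes it was 2 of 6 (2.42% of 7409 genes) and 0 of 6 (1.98%). The genes were Slc2a2 and G6pc2 in both types, and Slc37a4 in alpha. Slc2a2 had 47.9 CPM in CCR2-DTR against 18.8 CPM in WT alpha barcodes, and 61.8 against 22.2 CPM in delta barcodes. The insulin share moved alongside, 2.88% in CCR2-DTR against 1.30% in WT for alpha and 3.85% against 1.77% for delta. After subtracting what insulin UMIs predict, an alternative added after the data were seen, 0 of the genes still past the floor reached 1.5-fold at 1 month in either type, and Slc2a2 and G6pc2 were under the floor in both.

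Slc37a4 was higher in CCR2-DTR in all 3 types at both ages. In alpha barcodes it had 47.1 CPM in CCR2-DTR against 30.3 CPM in WT at 1 month (log2 0.64, 0.47 to 0.81) and 44.3 against 33.4 at 6 months (0.41, 0.21 to 0.61). In delta barcodes the ratios were 0.51 (-0.01 to 1.03) and 0.55 (0.04 to 1.05), from 53 to 84 UMIs per library. Less the insulin prediction the alpha ratio at 1 month was 0.57, just inside 1.5-fold, and the delta ratio 0.35. Acinar marker RNA moved with genotype too, with 268 and 170.1 CPM in CCR2-DTR against 31.9 and 7.96 CPM in WT over 8 genes in beta barcodes, and its part in the Slc37a4 difference was not tested.

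**Figure D4:**
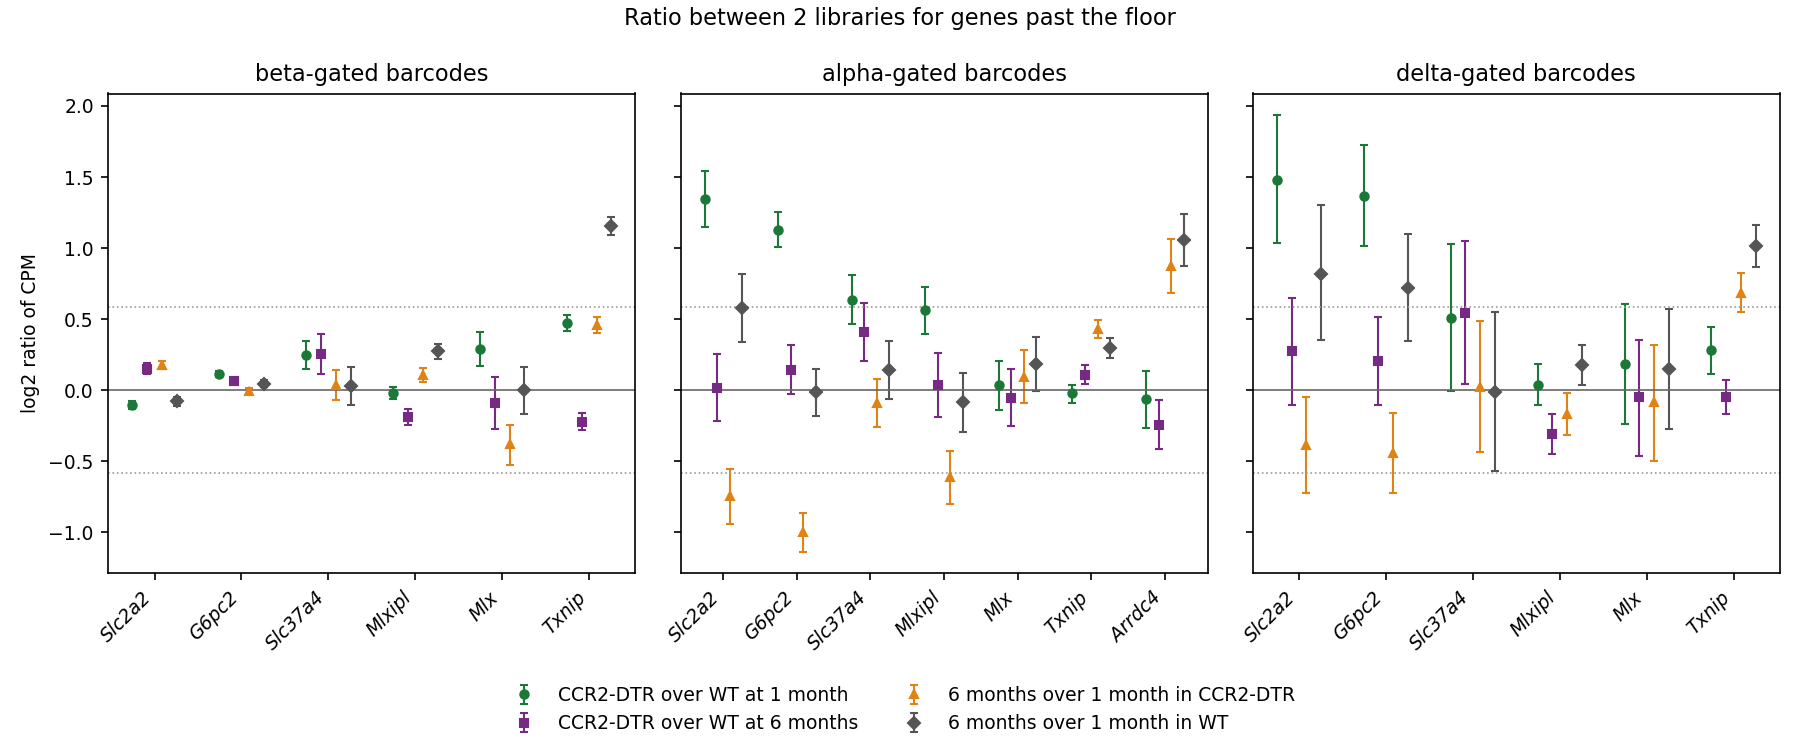
Log2 ratio of CPM between 2 libraries with exact conditional 95% intervals for genes past the floor in each cell type, with 1.5-fold dotted. Txnip in beta (1.15) and delta barcodes (1.02) and Arrdc4 in alpha barcodes (1.06) stand out for age in WT, and Slc2a2 and G6pc2 reach 1.35 and 1.13 between genotypes at 1 month in alpha barcodes.

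With age, Txnip was higher in all 3 cell types of both genotypes, and Arrdc4 in alpha cells of both. In beta barcodes of WT mice 1 of 6 genes reached 1.5-fold between 6 and 1 months (3.67% of 6984 genes), and that was Txnip, 392 CPM at 6 months against 176 CPM at 1 month (2.23-fold, log2 1.15, interval 1.09 to 1.22). In CCR2-DTR it was 0 of 6 (5.2%), and Txnip had 336 against 244 CPM (log2 0.46, 0.40 to 0.51). Txnip in delta barcodes was higher at 6 months in both genotypes, with 403 against 251 CPM in CCR2-DTR (0.69, 0.55 to 0.82) and 417 against 206 CPM in WT (1.02, 0.87 to 1.17). In alpha barcodes its ratios were inside 1.5-fold, at 0.43 (0.36 to 0.49) in CCR2-DTR, near the beta value, and 0.30 (0.23 to 0.36) in WT. Differences between cell types in these ratios were not tested. In alpha barcodes Arrdc4 had 47.6 against 26.0 CPM in CCR2-DTR (0.88, 0.68 to 1.07) and 56.3 against 27.1 CPM in WT (1.06, 0.87 to 1.24). In beta barcodes, under the floor, Arrdc4 was at 0.07 (-0.19 to 0.32) in CCR2-DTR and 0.52 (0.24 to 0.79) in WT.

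Counted over the genes past the floor, 4 of 7 reached 1.5-fold with age in alpha barcodes of CCR2-DTR (3.45% of 6834 genes) and 1 of 7 in WT (2.59%). In delta barcodes it was 1 of 6 (6.71%) and 3 of 6 (6.07%). The 4 in CCR2-DTR alpha barcodes were Arrdc4, higher, and Slc2a2, G6pc2 and Mlxipl, lower at 6 months (log2 -0.75, -0.999 and -0.61). The insulin share of the same barcodes was 1.67% at 6 months and 2.88% at 1 month. Less the insulin prediction Arrdc4 still reached 1.5-fold and Mlxipl did not, while Slc2a2 and G6pc2 were under the floor and not counted. The 3 in WT delta barcodes were Txnip, Slc2a2 and G6pc2. Less the insulin prediction Txnip still reached 1.5-fold, while Slc2a2 and G6pc2 were under the floor and not counted. When thinned, the Slc2a2 ratio there turned to -0.25.

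Depth differed with age, since the median beta barcode held 27203 (CCR2-DTR) and 28392 (WT) UMIs in the 6-month libraries and 14105 (CCR2-DTR) and 17288 (WT) in the 1-month ones. The Txnip ratio in WT beta barcodes ran from 0.95 to 1.21 under the 9 alternatives, thinning to equal depth included. The WT library at 1 month had the lowest Txnip of the 4 in beta and delta barcodes and enters both the WT age and the 1-month genotype comparison. Klf9 and Per1, listed as glucocorticoid and stress responsive, were also lowest in it: Klf9 had 297, 218, 334 and 171 CPM in beta barcodes, and Per1 26.8, 28.0, 26.2 and 13.0. The part of such genes in the Txnip difference was not tested. Txn1, which encodes the thioredoxin that Txnip binds, was lower at 6 months in beta barcodes, with 138 against 255 CPM in CCR2-DTR (log2 -0.88) and 157 against 274 CPM in WT (-0.80). Of the other genes reported to follow ChREBP, 8 passed the floor in beta barcodes and 0 of them reached 1.5-fold with age or between genotypes. Their median log2 with age was -0.05 in CCR2-DTR and -0.07 in WT (all genes 0.03 and 0.043). Over all genes 5.2% (CCR2-DTR) and 3.67% (WT) reached 1.5-fold with age, and under 1% between genotypes, so 0 of 8 is near the background. In alpha barcodes 0.936% and 0.863% of all genes did so between genotypes at 1 and 6 months. With age 3.45% (CCR2-DTR) and 2.59% (WT) did. Of the 8 listed genes there 1, each time lower, did so in each comparison. It was the transcription factor Klf10 between genotypes at 1 month (log2 -0.73) and with age in WT (-0.66), the fatty acid elongase Elovl6 between genotypes at 6 months (-0.61) and Scd2 with age in CCR2-DTR (-1.25). Immediate early genes in alpha barcodes were above WT in CCR2-DTR at 6 months for 13 of 13, 10 of them past 1.5-fold (median log2 0.76; 0.863% of all genes past it in either direction). With age in WT 11 of 13 were lower, 7 past 1.5-fold (median -0.63; 2.59% of all genes). Their part in the Arrdc4 difference was not tested.

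The beta gate has an edge, and Mlxipl changed there. Beta barcodes of under 5000 UMIs had 668, 558, 1036 and 464 Mlxipl CPM, against 377, 351, 428 and 357 CPM in those of at least 5000. Barcodes just outside the gate, with insulin at 10% to under 25% of UMIs, had 1061, 396, 1337 and 439 CPM. They numbered 605, 453, 954 and 64, with a median of 1947, 1969, 2051 and 10412 UMIs. Malat1, a nuclear RNA, was 8.26%, 5.29%, 10.9% and 2.84% of their UMIs at the median, against 1.22%, 1.28%, 1.26% and 1.24% in deep beta barcodes. Those outside were thus more numerous than the gated ones in WT at 6 months, and shallow, Malat1-rich and high in Mlxipl in both 6-month libraries. Txnip in the 59, 248, 69 and 49 barcodes just inside, at 25% to under 30% insulin, was 647, 309, 1241 and 180.4 CPM, and just outside, at 20% to under 25%, 613, 328, 684 and 220 CPM.

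**Figure D5:**
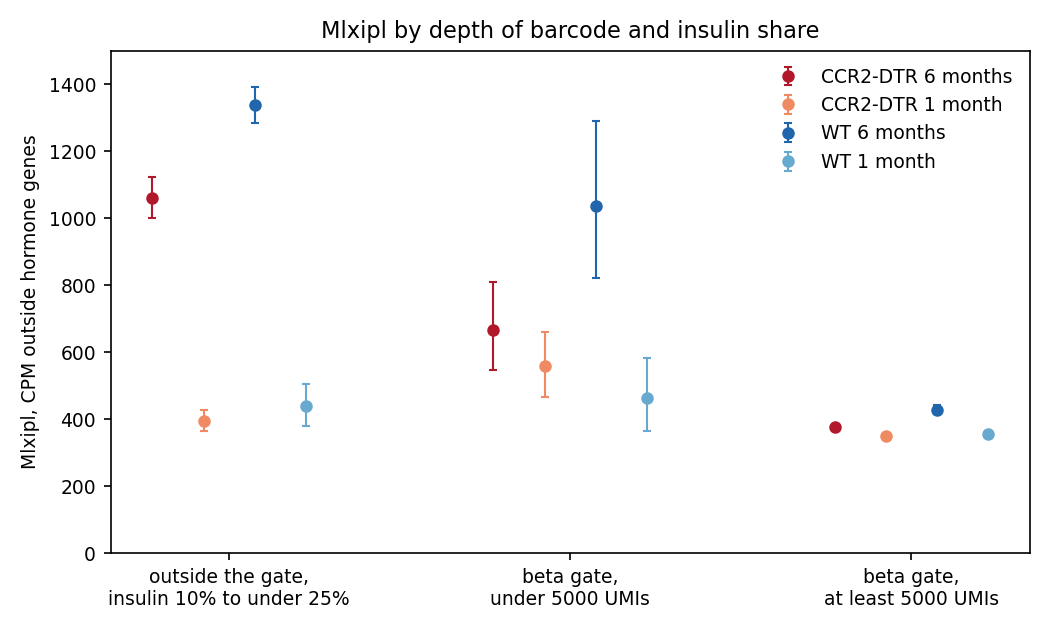
Mlxipl CPM by library in barcodes just outside the beta gate, in gated beta barcodes of under 5000 UMIs and in those of at least 5000, with exact Poisson 95% intervals. The 6-month libraries reach 1061 (CCR2-DTR) and 1337 CPM (WT) outside the gate, against 377 and 428 CPM in deep beta barcodes.

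The genes most like each of the 8 over the 12 summed profiles were found by Pearson correlation of log2(CPM + 1) among 6891 genes, a description in which cell type carries most of the likeness. Slc2a2 was nearest to Prss53, Trpm5 and Gpr158, and G6pc2 to Tmem215, Prss53 and Sytl4. Mlxipl was nearest to Vil1, Scg2 and Casc4, and Slc37a4 to Pitrm1, Dock10 and Tmem163. For Slc2a2 and Prss53 the coefficient was 0.998, and for Mlxipl and Vil1 0.997. Txnip had no neighbour as close, the first being Btaf1 at 0.885, then Map7d2 and Zfp942. Arrdc4 was nearest to Ralgapa2 (0.956), Tmsb15b1 and Btrc, Mlx to Scp2 (0.951), Scfd1 and Arl1, and Slc2a1 to Glmp (0.916), Cds1 and Lcorl.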

How the data were processed

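Single-cell RNA of islets was measured on the 10x Chromium platform in 4 libraries, 1 per group. The authors deposited raw UMI counts per gene and barcode, made with Cell Ranger 5.0.1 on mm10 per the submitters' processing notes. The shallowest barcodes listed held 500 to 684 UMIs. The other deposited files, which the authors supply to name genes and barcodes, are of another kind (unit: other) and hold no measurement. Nothing read here names the annotation release, intron counting or strand setting. Positions of genes were taken from GENCODE vM21 (GRCm38).

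Kept were barcodes of 1000 UMIs and 500 genes or more, mitochondrial UMIs up to 15% and a Scrublet score (scanpy 1.11.5) up to 0.25. Beta barcodes had Ins1 plus Ins2 at 25% or more of UMIs, Gcg and Sst under 2% and Ppy under 5%. Alpha and delta barcodes had Gcg or Sst at 5% or more, insulin under 15%, the other of Gcg and Sst under 2% and Ppy under 5%. Counts were summed per library and type without the 7 hormone genes. Cell types were compared with edgeR 4.0.16 (quasi-likelihood, TMM, library as block, mean of at least 20 CPM, adjusted p under 0.05), with DESeq2 1.42.0 as an alternative. Libraries come from separate pools of mice of different genotype and age. With library as block, these p-values weigh a cell type difference against how much it varied over the 4 libraries. Between 2 libraries the CPM ratio and its exact conditional Poisson interval were taken, which cover counting error only, and genes at 1.5-fold or more were counted. Endothelial-like and macrophage-like barcodes had under 10% hormone UMIs and 3 or more detected markers. Shares and variances use barcodes thinned to 2000 UMIs outside hormone genes, and 412 beta, 158 alpha and 28 delta shallower barcodes were left out. Scripts were tested on simulated counts. Members, lists and tests were chosen with earlier results of these data known. List genes are named by a rule: the 4 with the largest fold between beta and alpha among those called, and 2 per direction past 1.5-fold in each pair of libraries, of which the text gives some; and for each member the 3 genes most like it. Max, Mxd1, Me1 and Arrdc1 are named beside their lists' counts. Some list genes are not reported here.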

Additional observations from a re-analysis of the deposited data

Results flagged for a closer look

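G6pc2 in beta over alpha barcodes had a log2 ratio of 4.03 in CCR2-DTR at 1 month, away from 5.02, 5.10 and 5.05 in CCR2-DTR at 6 months, WT at 6 months and WT at 1 month. The insulin share of the alpha barcodes was 2.88% in that library and 1.23% to 1.67% in the other 3. A sample so far from the others was looked for in 21 sets of 4 values, and chance alone gives about 1 in 20.

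Slc2a2 in alpha barcodes had opposite log2 ratios with age, -0.75 in CCR2-DTR and 0.58 in WT. In delta barcodes Slc2a2 was at -0.38 in CCR2-DTR and 0.82 in WT, and G6pc2 at -0.44 in CCR2-DTR and 0.72 in WT. The Slc2a2 value in WT delta barcodes rests on 57 UMIs at 1 month. When thinned it turned to -0.25, the direction of CCR2-DTR. These differences between genotypes were not tested, since each group is 1 library, and insulin UMIs predict 63.3% or more of each of these Slc2a2 levels.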

How the results depend on the processing

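Log2 folds of the 7 genes between cell types were refitted under 14 alternatives, or 12 for Arrdc4, and all calls for Slc2a2, G6pc2, Slc37a4 and Mlxipl in beta over alpha and beta over delta held. Turned in direction, none of them past the threshold before or after, were Txnip in beta over delta without the low-count filter (0.06), with the stricter gate (0.025) and with mitochondrial UMIs at most 8% (0.12), G6pc2 in alpha over delta with the looser gate (-0.11), and Txnip in alpha over delta over the fits without 1 library (-0.003 to 0.228). Past 1.5-fold, beta at 1 month between genotypes had 1 gene, Txnip, with CPM of all UMIs. WT age in alpha had 2 (Slc2a2 added) relative to the median gene, with each barcode counting the same, with the stricter gate, without Scrublet and with mitochondrial UMIs at most 8%. Delta between genotypes had 4 at 1 month with the stricter gate and, at 6 months, 2 when thinned, 1 with the stricter and 1 with the looser gate. Delta age in CCR2-DTR had 0 with each barcode counting the same, when thinned and with the looser gate, 2 with no floor and 3 with the stricter gate; in WT it had 1 with the looser gate. Less the insulin prediction the counts were 0 in alpha and 0 in delta between genotypes at 1 month. With age there was 1 in alpha in CCR2-DTR and 1 in delta in WT. These counts leave out Slc2a2 and G6pc2, which the subtraction put under the floor. Slc2a2 in delta with age in WT turned to -0.25 when thinned. The cause was not tested. Without the replicate block by library 5, 5 and 3 genes were called in beta over alpha, beta over delta and alpha over delta, the same genes as with it. Elsewhere 8 calls were gained and 1 lost. With the stricter gate Txnip was gained in beta over alpha (-0.27, edgeR adjusted p = 0.0193) and Mlx lost in beta over delta (0.42). With the looser gate Slc2a2 was gained in alpha over delta (-0.62, edgeR adjusted p = 0.0119). No paired analysis was possible between genotypes or ages because each group is 1 library.

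Depth limits delta barcodes most, with 2567700 to 2933757 UMIs outside hormone genes, and Slc2a1 and Arrdc4, at 8 to 33 UMIs there.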
